A study of Mus musculus with 14 samples.

Results

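SirT7 loss was examined in fibroblasts that had glucose: 4 libraries of SirT7-/- cells against 4 libraries of wild-type cells, all in normal medium, which are 8 of the 14 libraries of the series. The 8 libraries were taken by their labels, and values are also given without 1 of them, KO-NT 4, for the reason given below. The cells are mouse embryonic fibroblasts (MEFs), connective-tissue cells put into culture from embryos, of strain 129s2, taken at day 14.5 and used at passages 3 to 4. Both groups were untreated and were harvested 18 hours after the start of the treatment period. They are called WT-NT 1 to 4 and KO-NT 1 to 4 here. The other 6 libraries, 3 of wild-type (WT-GS) and 3 of SirT7-/- cells (KO-GS), spent those 18 hours without glucose and are used only to place values. The knockout is carried by all cells of the SirT7-/- group, and the deleted exons are not given in the sources used here. Nothing in the labels tells if the replicates of a group came from different embryos or cultures, and the p-values then measure only the spread between these samples, which may be technical.

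SirT7 is a sirtuin, an enzyme that uses NAD to remove acetyl groups from proteins. It is concentrated in the nucleolus, where it is known for its part in ribosomal DNA transcription, and it removes acetyl groups from histone H3 at promoters. The series asks how an ADP-ribosylating activity of SirT7 bears on glucose starvation through macroH2A1.1, a histone variant made from the gene H2afy in this table. The comparison in normal medium gives the state of the cells before that challenge.

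The 8 libraries held between 73128997 and 91607861 counts, and a gene with a count of 0 could lie at up to 0.0327 to 0.0410 CPM (counts scaled to the total of the library) in them, taking 3 counts as the limit for counting error alone. All 12 fibroblast markers had counts in every library, and their summed level was 44358 to 51782 CPM in 7 libraries and 28750 CPM in KO-NT 4. Xist, the RNA of the inactive X chromosome, lay between 798 and 1591 CPM, and the Y-linked genes Ddx3y, Uty, Eif2s3y and Kdm5d were listed at 0. A position was computed for each library along genes that differed at least 2-fold between starved and fed wild-type cells (1736 genes for the SirT7-/- libraries, and 1199 to 2277 for the wild-type libraries, each placed without itself), with 0 at the mean of fed and 1 at the mean of starved wild-type libraries. WT-NT 1 to 4 lay at 0.0757, 0.172, -0.00209 and 0.335, and KO-NT 1 to 3 at -0.00743, 0.0163 and 0.0813. KO-NT 4 lay at 0.85, next to WT-GS at 0.878, 0.917 and 0.939. Among the starved knockout libraries KO-GS 1 and 2 lay at 0.864 and 0.908, and KO-GS 3 lay at 0.189. The library labelled KO-NT 4 therefore went against its label in these genes, and the counts, calls and lists below are given as labelled and without it. Because that library was left out for its expression profile, the values without it are partly set by that choice for genes that respond to starvation.

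**Figure D1:**
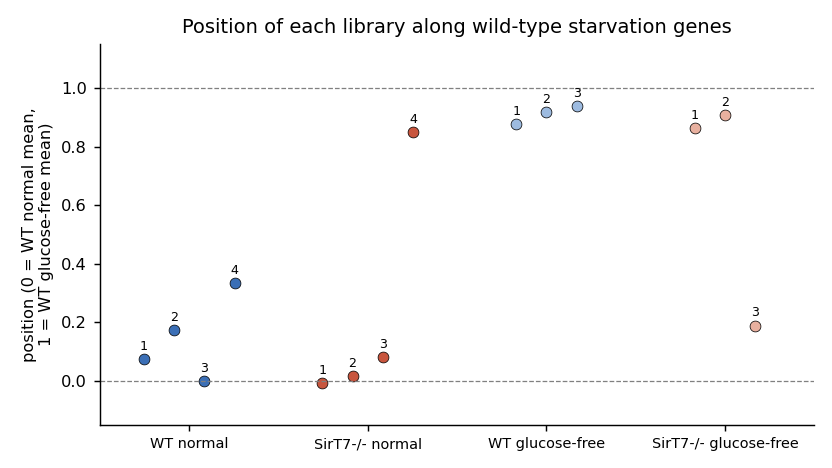
Position of all 14 libraries (points, numbered by replicate) along genes that differed between starved and fed wild-type cells, where 0 is the mean of fed and 1 the mean of starved wild-type libraries (dashed lines); each wild-type library was placed on an axis made without it. KO-NT 4 at 0.85 lies with the starved libraries and KO-GS 3 at 0.189 with the fed ones.

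The first question was which genes differed at all between the genotypes in normal medium. As labelled, Sirt7 itself was the 1 gene called by edgeR's quasi-likelihood test at an adjusted p under 0.05 among 14971 genes tested, which is 0.00668% of them. An unadjusted p under 0.05 was reached by 564 genes (3.77%), 263 of them (1.76%) with higher and 301 (2.01%) with lower values in SirT7-/- cells. If no gene differed, a share of about 0.05 of all genes would reach it, and 3.77% lies below that share. Other tools gave 1 gene (limma-voom), 50 genes (DESeq2) and 75 genes (limma-voom with a weight per library). Among these weights that of KO-NT 4 was the smallest, 0.122, and WT-NT 4 and WT-NT 2 also received low ones, 0.299 and 0.350. The remaining libraries received 1.42 to 3.39. Without KO-NT 4, edgeR called 5 of 15107 genes (0.0331%): Sirt7, Pcyt2 and Htra1 fell (3 genes, 0.0199%), and P4hb and Arhgdia rose (2 genes, 0.0132%). Unadjusted p under 0.05 was then reached by 993 genes (6.57%), 473 with higher (3.13%) and 520 with lower values (3.44%), and the median log2 difference of all tested genes was -0.02, against 0.00 as labelled. Of the 5 genes, Sirt7, Pcyt2, P4hb and Arhgdia stand within a short stretch of chromosome 11, and the promoters of the latter pair are shown with their values below.

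Sirt7 measured 17.9, 23.1, 21.4 and 18.7 CPM in WT-NT 1 to 4 and 1.02, 1.39, 1.41 and 0.557 CPM in KO-NT 1 to 4. Every SirT7-/- library lay far below every wild-type library, and KO-NT 4 carried the knockout level as its genotype label says. The means were 20.3 ± 2.41 CPM (SD, n = 4) and 1.09 ± 0.402 CPM (SD, n = 4), and Sirt7 fell by 4.19 on the log2 scale (SE 0.307, edgeR adjusted p = 0.0059), an 18.2-fold lower level. Without KO-NT 4 it fell by 3.96 (SE 0.186, edgeR adjusted p = 0.000604). The call as labelled was lost without WT-NT 2 (adjusted p = 0.065) or without KO-NT 1 (adjusted p = 0.0763), with log2 differences of -4.11 and -4.14. In glucose-free medium the levels were 17.6, 17.3 and 16.9 CPM in wild-type and 0.301, 0.475 and 0.393 CPM in SirT7-/- libraries. The counts left in the knockout were above the limit for 0 in each of the 4 libraries, and the gene-level table does not show which exons they came from.

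Pcyt2 is the gene next to Sirt7 and encodes the enzyme that makes CDP-ethanolamine for phosphatidylethanolamine synthesis. It measured 62.8, 90.6, 58.4 and 58.7 CPM in WT-NT 1 to 4 and 14.3, 15.8, 14.7 and 7.2 CPM in KO-NT 1 to 4. All SirT7-/- libraries lay below all wild-type libraries in normal medium, and KO-NT 4 was the lowest. The log2 difference was -2.36 as labelled (SE 0.269, edgeR adjusted p = 0.106). Without KO-NT 4, Pcyt2 fell by 2.15 (SE 0.18, edgeR adjusted p = 0.0201), a 4.45-fold lower level. Starved wild-type libraries also held low Pcyt2, at 15.8, 15.7 and 16.2 CPM, and KO-GS 1 to 3 held 7.26, 6.2 and 17.9 CPM. KO-NT 4 lay with KO-GS 1 and 2 for this gene, and KO-GS 3 near KO-NT 1 to 3.

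P4hb, 6 genes away from Sirt7 on the same side, encodes protein disulfide isomerase, an enzyme of the endoplasmic reticulum (ER) that forms disulfide bonds and is also a subunit of collagen prolyl 4-hydroxylase. It measured 1557, 1737, 1448 and 1398 CPM in WT-NT 1 to 4 and 3411, 3365, 3348 and 2592 CPM in KO-NT 1 to 4. The groups did not overlap, with or without KO-NT 4. The log2 difference was 1.07 as labelled (SE 0.144, edgeR adjusted p = 0.174). Without KO-NT 4, P4hb rose 2.24-fold (log2 1.16, SE 0.101, edgeR adjusted p = 0.0201). In glucose-free medium it measured 2585, 2390 and 2302 CPM in wild-type and 2845, 3980 and 1468 CPM in SirT7-/- libraries, so that KO-GS 2 was high and KO-GS 3 was at the level of fed wild-type cells.

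Arhgdia, the neighbour of P4hb, encodes a GDP dissociation inhibitor, which keeps small GTPases in the cytosol. It measured 685, 849, 693 and 610 CPM in WT-NT 1 to 4 and 1537, 1569, 1628 and 644 CPM in KO-NT 1 to 4. KO-NT 1 to 3 lay above all wild-type libraries, and KO-NT 4 lay among the wild-type values. The log2 difference was 0.95 as labelled (SE 0.283, edgeR adjusted p = 1). Without KO-NT 4, Arhgdia rose 2.27-fold (SE 0.122 on the log2 scale, edgeR adjusted p = 0.0415). The starved libraries measured 524, 547 and 583 CPM in wild-type and 575, 1168 and 661 CPM in SirT7-/- cells, so that KO-GS 2 alone was high there.

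The promoters of P4hb and Arhgdia are shown because these neighbours were both high in KO-NT 1 to 3. They are the 250 bases before the transcription start, from RefSeq on GRCm38.p6, another build than the mm9 of the submitters' processing notes, both on the minus strand and read 5′ to 3′; Arhgdia has 2 listed starts, of which the first listed is used. P4hb lies at chr11:120573254-120573503 and Arhgdia at chr11:120581625-120581874. Capitals mark CCAAT and GGGCGG, searched on both strands, so that they also read ATTGG and CCGCCC, and no marked motif overlaps another.
P4hb: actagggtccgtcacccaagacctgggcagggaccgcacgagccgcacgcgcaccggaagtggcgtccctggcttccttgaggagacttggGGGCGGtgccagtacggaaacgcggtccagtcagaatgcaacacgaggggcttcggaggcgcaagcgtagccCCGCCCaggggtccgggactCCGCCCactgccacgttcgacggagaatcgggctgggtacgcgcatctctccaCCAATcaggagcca
Arhgdia: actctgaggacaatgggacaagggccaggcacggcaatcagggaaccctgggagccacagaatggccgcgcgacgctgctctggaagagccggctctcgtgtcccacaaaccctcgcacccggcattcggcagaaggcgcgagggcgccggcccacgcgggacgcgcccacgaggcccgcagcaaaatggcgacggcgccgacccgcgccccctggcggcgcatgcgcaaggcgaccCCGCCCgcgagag
The P4hb window held 1 CCAAT and 3 GGGCGG matches with 66.8% G and C, and the Arhgdia window held 0 and 1 with 72.0%. Of 32851 RefSeq promoter windows of this length, 33.85% held CCAAT and 32.74% held GGGCGG. A match describes these letters and not a bound site.

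Around Sirt7, 30 of 39 genes within 20 places on each side in RefSeq order passed the filter on low counts. None of them was called as labelled, and 3 of them, Pcyt2, P4hb and Arhgdia, were called without KO-NT 4, where 0.0331% of all genes were. Fam195b, 8 genes away on the side of Pcyt2, measured 54.1, 74.8, 50.4 and 55.8 CPM in WT-NT 1 to 4 and 102, 114, 103 and 51.3 CPM in KO-NT 1 to 4 (log2 0.88 without KO-NT 4, SE 0.141, edgeR adjusted p = 0.203). Its pattern over libraries was that of Arhgdia, with KO-GS 2 at 82.5 CPM against 49.4 and 52.9 CPM in KO-GS 1 and 3. Alyref, an mRNA export factor, and Anapc11, a subunit of the anaphase-promoting complex, stand between Pcyt2 and Arhgdia and differed by 0.05 (SE 0.146) and -0.01 (SE 0.162) without KO-NT 4. Mafg, a small Maf transcription factor on the other side of Sirt7, differed by 0.15 (SE 0.0968), and Fasn, the fatty acid synthase, 15 genes away on that side, by 0.34 (SE 0.0769, edgeR adjusted p = 0.48). The median log2 difference of the 30 neighbours was 0.05 without KO-NT 4, with 5 of them beyond 0.5 in either direction (Fam195b, P4hb, Arhgdia, Pcyt2 and Slc16a3), as were 13.2% of all genes tested. The library kit does not mark strand, so reads of overlapping genes on opposite strands cannot be told apart here.

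**Figure D2:**
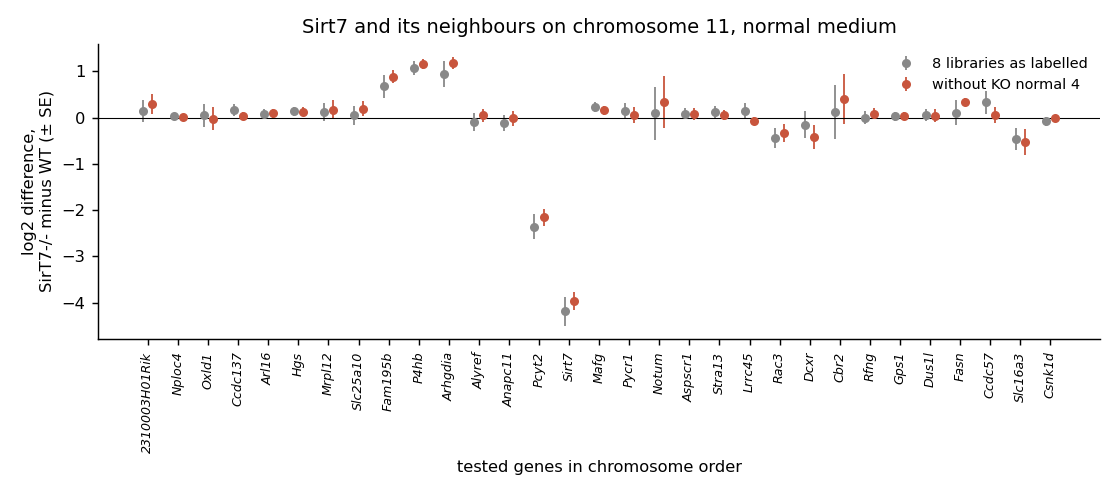
Log2 difference between SirT7-/- and wild-type libraries in normal medium (points, with bars of 1 SE) for Sirt7 and its 30 tested neighbours in chromosome order, as labelled (grey) and without KO-NT 4 (red). Sirt7 and Pcyt2 lie lowest, and Fam195b, P4hb and Arhgdia stand together above 0 beside genes near 0.

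**Figure D3:**
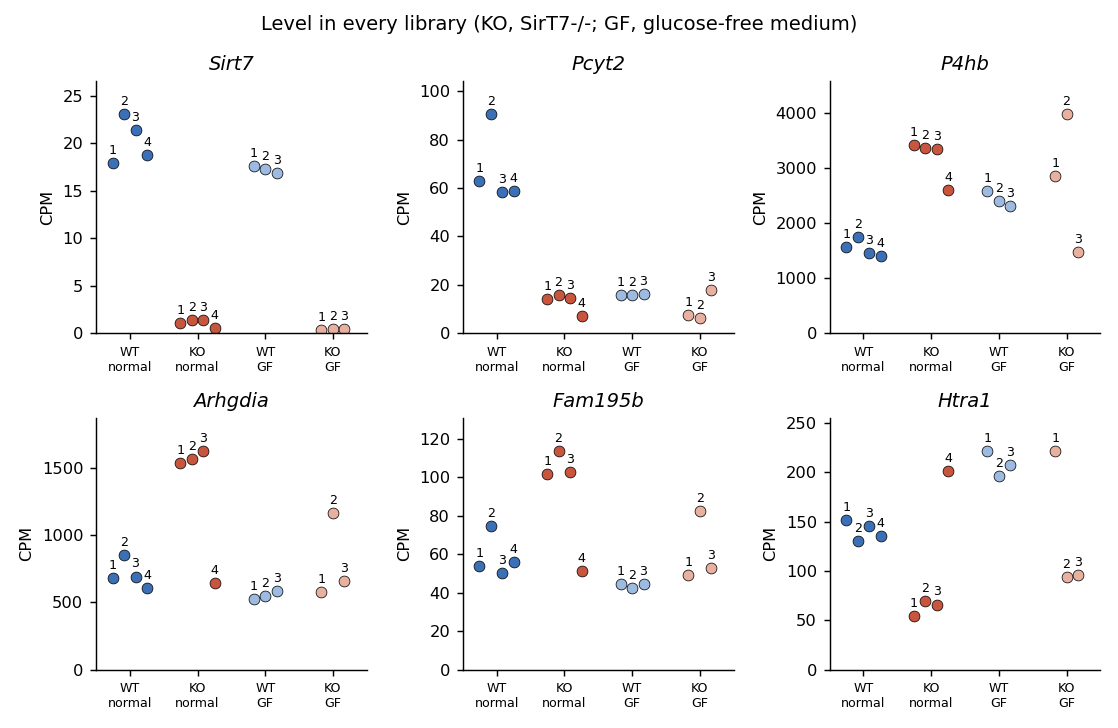
Level in CPM of the 5 genes called without KO-NT 4 and of Fam195b in each of the 14 libraries (points, numbered by replicate), by genotype and medium. In Arhgdia and Fam195b, KO-NT 1 to 3 and KO-GS 2 lie above the other libraries, while KO-NT 4 and KO-GS 1 and 3 lie near the wild-type range.

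Htra1 was the 1 called gene away from this locus. It encodes a secreted serine protease that cuts matrix proteins and antagonises TGF-beta family ligands. It measured 152, 130, 146 and 136 CPM in WT-NT 1 to 4 and 54.7, 69.2, 66 and 201 CPM in KO-NT 1 to 4. KO-NT 1 to 3 lay below all wild-type libraries and KO-NT 4 above them, at the level of WT-GS (222, 196 and 207 CPM). Without KO-NT 4, Htra1 fell by 1.13 on the log2 scale (SE 0.108, edgeR adjusted p = 0.0314), a 2.18-fold lower level. As labelled the log2 difference was -0.51 (SE 0.385, edgeR adjusted p = 1). KO-GS 1 to 3 measured 221, 93.7 and 96.3 CPM.

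The calls of Pcyt2, P4hb, Arhgdia and Htra1 rest on the 3 remaining SirT7-/- libraries. In a fit on all groups, without KO-NT 4 and KO-GS 3, Pcyt2 and P4hb kept their calls, and Arhgdia and Htra1 did not (adjusted p = 0.202 and 0.267). Each was lost when KO-NT 1, 2 or 3 was also left out, with edgeR adjusted p between 0.139 and 0.318, and when WT-NT 1 was left out, with adjusted p between 0.127 and 0.229. Without WT-NT 3, Pcyt2 kept its call (adjusted p = 0.0439) and P4hb, Arhgdia and Htra1 did not (0.115, 0.162 and 0.115). Their log2 differences moved little in those fits, for example between 1.12 and 1.23 for P4hb and between -2.22 and -1.98 for Pcyt2 when 1 library was left out. Without KO-NT 4 and WT-NT 2 the number of called genes was 14, and without KO-NT 4 and WT-NT 4 it was 9. As labelled, leaving out WT-NT 4 gave 3 called genes.

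The genes next in order of p, with no overlap between the libraries, were not called, and their values describe the libraries. The groups did not overlap in 498 genes (3.33%) as labelled, 162 higher (1.08%) and 336 lower (2.24%), and in 1509 genes (9.99%) without KO-NT 4, 520 higher (3.44%) and 989 lower (6.55%). By random labelling alone, 4 libraries lie fully apart from 4 others in a share of 0.0286 of genes, near the 3.33% as labelled. With 3 libraries against 4 that share is larger, so the percentages of the fits are not directly comparable. By the naming rule, 12 genes were named in each direction in each fit, and 10 were named in both: P4hb, Syne3, Mmp12, Sirt7, Pcyt2, Cdh10, Nr2f1, Pde1a, Irak2 and Cxcl12. Syne3 encodes nesprin-3, which links the nuclear envelope to the cytoskeleton. It measured 38.7, 36.7, 34.2 and 39.6 CPM in WT-NT 1 to 4 and 58.6, 54.5, 54.9 and 53.3 CPM in KO-NT 1 to 4 (log2 0.59, SE 0.0824, edgeR adjusted p = 0.177 as labelled). The 4 knockout libraries were alike, KO-NT 4 included. Mmp12, the macrophage elastase, measured 4.31, 5.87, 6.82 and 14.2 CPM in WT-NT and 85.2, 52.6, 33.4 and 35.4 CPM in KO-NT (log2 2.75, SE 0.443, edgeR adjusted p = 0.401). It had the largest difference among the named genes with higher values, and its starved levels were 12.1, 0.953 and 10.7 CPM in wild-type and 49.5, 2.93 and 62.1 CPM in SirT7-/- libraries, so that KO-GS 2 lay within the wild-type range.

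Among genes with lower values in all 4 SirT7-/- libraries, Cdh10, a cadherin, measured 12.5, 10.4, 18.4 and 11.1 CPM in WT-NT and 3.19, 4.39, 5.27 and 4.92 CPM in KO-NT (log2 -1.53, SE 0.237, edgeR adjusted p = 0.34). Nr2f1, the nuclear receptor COUP-TF1, measured 9.89, 6.64, 8.58 and 7.78 CPM and 4.57, 4.34, 4.08 and 3.61 CPM (log2 -0.96, SE 0.173, edgeR adjusted p = 0.721). Pde1a, a phosphodiesterase that degrades cyclic nucleotides, measured 7.43, 6.19, 8.74 and 8.62 CPM and 2.89, 2.46, 3.61 and 4.62 CPM (log2 -1.17, SE 0.23, edgeR adjusted p = 0.817). For these 3 genes all 4 knockout libraries lay below all wild-type libraries in normal medium, which the naming rule required. In glucose-free medium the genotypes overlapped in each of them, at 4.45 to 7.11 and 4.1 to 9.81 CPM for Cdh10, 2.45 to 4.52 and 2.88 to 5.07 CPM for Nr2f1, and 3.24 to 5.35 and 4.32 to 5.88 CPM for Pde1a in wild-type and SirT7-/- libraries. Cxcl12, a chemokine made by stromal cells, measured 502, 521, 369 and 385 CPM and 235, 254, 223 and 118 CPM (log2 -1.07, SE 0.244, edgeR adjusted p = 0.995). KO-NT 4 was the lowest, and the starved wild-type libraries held 136, 105 and 112 CPM. Irak2, a kinase of interleukin-1 and Toll-like receptor signalling, differed by -0.44 (SE 0.0932).

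Named only as labelled were 9 genes with higher values, Rhob, Cmklr1, Klf2, Plec, Ptgir, Cspg4, Npnt, Kcnf1 and Pxdc1, with log2 differences from 0.36 (Pxdc1, SE 0.0847) to 1.08 (Kcnf1, SE 0.255). Rhob, a small GTPase of the cytoskeleton and endosomes, measured 115, 138, 145 and 101 CPM in WT-NT and 191, 197, 216 and 178 CPM in KO-NT (log2 0.68, SE 0.136). Plec, the cytoskeletal linker plectin, measured 556, 597, 672 and 558 CPM and 773, 881, 818 and 878 CPM (log2 0.51, SE 0.109). In both genes the knockout libraries lay together above the wild type, which the naming rule required. Named only as labelled with lower values were Slc40a1, Gpx3, Plekha2, Cpxm1 and Prkar1b, with log2 differences from -1.20 (Slc40a1, SE 0.232) to -0.55 (Prkar1b, SE 0.132). Slc40a1 encodes ferroportin, the cellular iron exporter, and measured 13.6, 10.4, 19.7 and 21.3 CPM in WT-NT and 7.16, 7.47, 5.72 and 7.56 CPM in KO-NT. Gpx3, a secreted glutathione peroxidase, measured 45.6, 50.1, 63.8 and 72 CPM and 32.5, 34.8, 31.9 and 23.7 CPM. EdgeR called none of these 14 genes, with adjusted p of 0.817 or above.

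Named only without KO-NT 4 were Slc6a17, Trib2, Sp7, Zfp36l2, Ptger4, Fbxo32, Col5a3, Fam195b and Arhgdia with higher values, and Htra1, Bnip3, Pdk1, Banp and P4ha1 with lower values. Trib2, a pseudokinase, measured 33.3, 36.4, 35.7 and 35.3 CPM in WT-NT and 53.1, 52.6, 50.3 and 9.55 CPM in KO-NT (log2 0.59 without KO-NT 4, SE 0.0685, edgeR adjusted p = 0.0591). KO-NT 4 stood outside both groups, with the starved wild-type libraries at 9.27, 6.44 and 7.24 CPM. Sp7, the osteoblast transcription factor osterix, measured 0.875, 1.89, 1.19 and 1.62 CPM in WT-NT and 6.32, 5.86, 6.46 and 1.08 CPM in KO-NT (log2 2.18 without KO-NT 4, SE 0.269, edgeR adjusted p = 0.0799). Bnip3, a mitochondrial protein that promotes mitophagy, measured 39.8, 35.9, 47.9 and 44.1 CPM in WT-NT and 21.9, 20.7, 20.4 and 80.5 CPM in KO-NT (log2 -0.97 without KO-NT 4, SE 0.11, edgeR adjusted p = 0.0591). Pdk1, the kinase that inhibits pyruvate dehydrogenase, measured 31, 24.7, 36 and 31.5 CPM and 17.1, 17.3, 14.8 and 42.4 CPM (log2 -0.88, SE 0.137, edgeR adjusted p = 0.199). P4ha1, a catalytic subunit of collagen prolyl 4-hydroxylase, differed by -0.38 (SE 0.0781). For Bnip3, Pdk1 and P4ha1, KO-NT 1 to 3 lay below all wild-type libraries, which the naming rule required, and KO-NT 4 lay above them. Starved wild-type cells held 94.5, 133 and 70.7 CPM of Bnip3 and 46.7, 57.7 and 42 CPM of Pdk1.

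**Figure D4:**
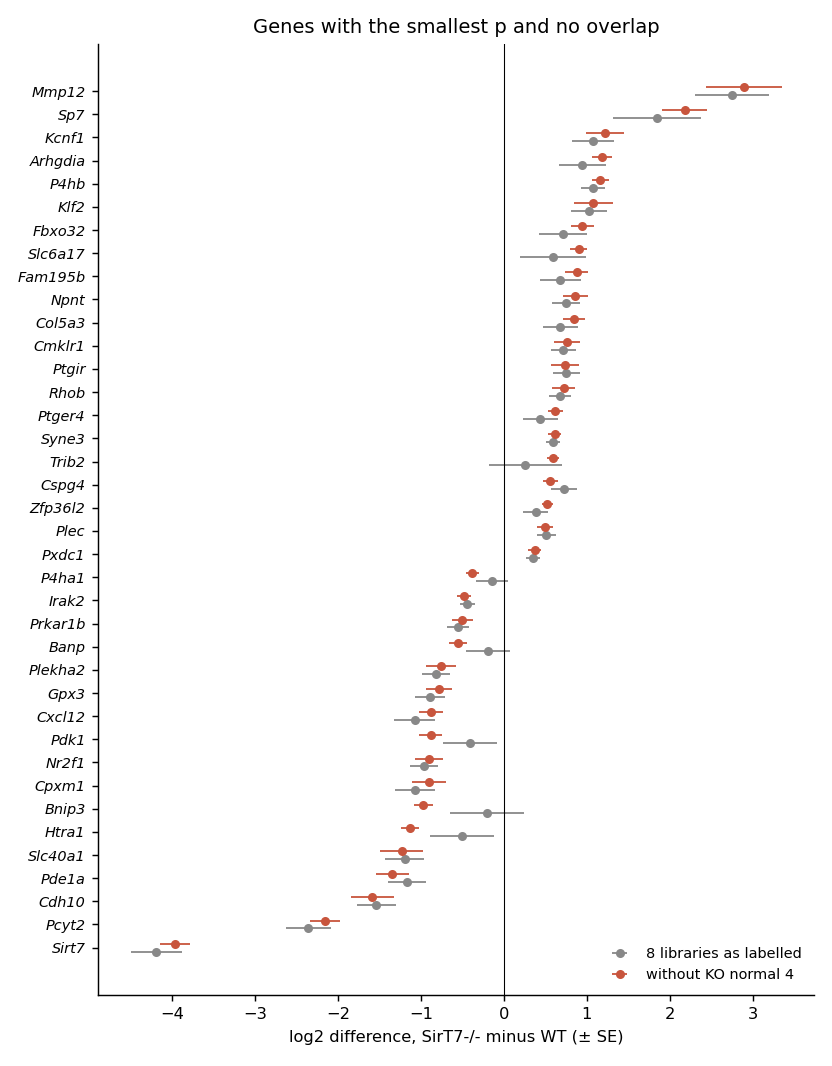
Log2 difference between SirT7-/- and wild-type libraries in normal medium (points, with bars of 1 SE) for the 38 genes named by the rule, as labelled (grey) and without KO-NT 4 (red). The values of Syne3, Mmp12, Cdh10 and Nr2f1 hardly differ between the fits, while those of Bnip3, Htra1, Trib2 and Pdk1 do. The former were named in both fits and the latter only without KO-NT 4, so the naming rule partly set this contrast.

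The named genes were also read in the 6 glucose-free libraries, none of which enters the comparison in normal medium. Of the 12 genes named as labelled with higher values, 4 had a log2 difference above 0 in glucose-free medium, where 51.4% of all tested genes did. Of the 12 with lower values, 5 had one below 0, where 48.6% did, and without KO-GS 3 the number was 9, where 48.4% did. In both fits the 12 genes with lower values include Sirt7, the gene knocked out, whose direction was set by the genotype. Of those named without KO-NT 4, 9 of 12 were above 0 and 7 of 12 below 0 in glucose-free medium as labelled. The shares of all genes were 51.4% and 48.6%. Without KO-GS 3, 7 of 12 were above 0 and 10 of 12 below 0, and the shares of all genes were 51.6% and 48.4%. In that medium edgeR called 1 of 14972 genes as labelled (0.00668%; 490, or 3.27%, at an unadjusted p under 0.05), again Sirt7, and 4 of 15156 (0.0264%) without KO-GS 3: Sirt7, Cldn12, Raver1-fdx1l and Fdx1l. The difference between the media was not tested.

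Gene lists are described by counts and medians, beside the 3.77% of all genes at an unadjusted p under 0.05 as labelled and the 6.57% without KO-NT 4. These shares were 1.76% and 3.13% upward, and 2.01% and 3.44% downward. The sirtuins, the variants of histone H2A and the PARPs, the enzymes that attach ADP-ribose, are the families closest to the subject of the series. Among the 7 sirtuins, Sirt7 was called and the other 6 were not. Sirt1, the nuclear deacetylase, measured 23, 22.6, 23.1 and 22.3 CPM in WT-NT and 28, 22.9, 24.2 and 33 CPM in KO-NT (log2 0.27 as labelled, SE 0.124, and 0.17 without KO-NT 4, SE 0.0908). H2afy, the gene of macroH2A1, measured 114, 100, 105 and 79.5 CPM in WT-NT and 86.6, 85.7, 94.6 and 77.4 CPM in KO-NT (log2 -0.19 as labelled, SE 0.127, and -0.14 without KO-NT 4, SE 0.128, edgeR adjusted p = 0.823). The groups overlapped, and the gene-level table does not separate the macroH2A1.1 isoform. H2afy2, the gene of macroH2A2, measured 39.9, 55.4, 33.2 and 27.5 CPM and 41.8, 44.4, 39.8 and 16.6 CPM, with log2 differences of -0.11 as labelled (SE 0.326) and 0.13 without KO-NT 4 (SE 0.222), so that its sign depended on 1 library. The PARP family list held 19 genes, among them Macrod1, Macrod2 and Parg, which remove ADP-ribose and are not PARPs. Of these 19 genes, 1 reached an unadjusted p under 0.05 in each fit, Parp8, at 54.5, 53.5, 57.8 and 57.1 CPM in WT-NT and 43, 48.6, 49 and 34.9 CPM in KO-NT (log2 -0.32, SE 0.121, edgeR adjusted p = 1). Of 13 tested genes of NAD synthesis and use, 1 did so as labelled and 3 without KO-NT 4, all with lower values. They were led by Cd38, a NAD-consuming enzyme of the cell surface, at 5.87, 4.6, 9.63 and 9.53 CPM and 3.37, 3.76, 3.97 and 5.44 CPM (log2 -0.97 without KO-NT 4, SE 0.284, edgeR adjusted p = 0.68). Nampt, which makes the NAD precursor nicotinamide mononucleotide, differed by 0.02 as labelled (SE 0.258) and by -0.33 without KO-NT 4 (SE 0.119).

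Lists on ribosome production bear on the nucleolar role of SirT7. None of the 16 tested genes of the RNA polymerase I machinery reached an unadjusted p under 0.05 in either fit, with medians of 0.11 as labelled and 0.06 without KO-NT 4. Of 39 ribosome assembly genes, 37 had positive log2 differences as labelled (median 0.14) and 35 without KO-NT 4 (median 0.11). Of them, 2 and 1 reached an unadjusted p under 0.05. The mean log2 CPM of the list was 6.27, 6.27, 6.21 and 5.94 in WT-NT 1 to 4. It was 6.31, 6.23, 6.28 and 6.396 in KO-NT 1 to 4. WT-NT 4 was the lowest library, KO-NT 4 the highest, and KO-NT 2 lay within the wild-type range. In glucose-free medium, 35 of the 39 lay below 0 as labelled (median -0.203) and 36 without KO-GS 3 (median -0.0855). Bysl, a factor of small-subunit maturation, measured 40.8, 46.8, 38.9 and 34.9 CPM in WT-NT and 48.2, 46.6, 50.8 and 49.8 CPM in KO-NT (log2 0.30 as labelled, SE 0.106, edgeR adjusted p = 1). The groups overlapped slightly, at KO-NT 2 and WT-NT 2. Rrp12, another assembly factor, differed by 0.26 as labelled (SE 0.114). The 76 ribosomal protein genes had a median of 0.16 as labelled, with 75 above 0, and of -0.00 without KO-NT 4, with 36 above 0. Their summed level was 60029 CPM in KO-NT 4, against 42165 to 42851 CPM for KO-NT 1 to 3 and 34482 to 53697 CPM for WT-NT. None of the 50 nuclear-encoded respiratory chain genes and none of the 43 mitochondrial ribosomal protein genes reached an unadjusted p under 0.05 in either fit.

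Several lists had other medians without KO-NT 4. All 24 ER chaperones and folding factors had positive log2 differences as labelled (median 1.03, 4 at an unadjusted p under 0.05), and 13 of 24 did without KO-NT 4 (median 0.03), when P4hb was the 1 member called. Hspa5, the ER chaperone BiP, measured 1449, 1479, 1456 and 1065 CPM in WT-NT and 1556, 1437, 1457 and 6333 CPM in KO-NT, and WT-GS held 6206 to 7435 CPM. For Hspa5, KO-NT 1 to 3 overlapped the wild-type libraries, while for P4hb they lay above all of them. Of 22 sterol synthesis genes, 8 had positive values as labelled (median -0.08) and 22 of 22 without KO-NT 4 (median 0.22, 6 at an unadjusted p under 0.05). The summed level of the list was 2444 to 3167 CPM in WT-NT, 3044 to 3505 CPM for KO-NT 1 to 3 and 867 CPM in KO-NT 4, so the wild-type libraries and KO-NT 1 to 3 overlapped. The 30 genes of G2 and M phase had a median of -0.09 as labelled, with 26 below 0, and of 0.14 without KO-NT 4, with 28 above 0, and none reached an unadjusted p under 0.05.

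Most glycolysis genes had negative log2 differences in both fits, at 16 of 21 as labelled (median -0.11, 3 at an unadjusted p under 0.05) and 18 of 21 without KO-NT 4 (median -0.16, 8 at an unadjusted p under 0.05). The mean log2 CPM of the list was 7.05 to 7.10 in WT-NT and 6.86 to 6.89 in KO-NT 1 to 3. In KO-NT 4 it was 7.11, above all wild-type libraries in normal medium. Tpi1, triosephosphate isomerase, measured 495, 543, 472 and 415 CPM in WT-NT and 398, 389, 403 and 344 CPM in KO-NT (log2 -0.31, SE 0.116, edgeR adjusted p = 1). Gpi1, glucose-6-phosphate isomerase, measured 350, 339, 339 and 315 CPM and 274, 274, 285 and 324 CPM (log2 -0.24 without KO-NT 4, SE 0.0724, edgeR adjusted p = 0.682). Tpi1 was low in all 4 knockout libraries, and Gpi1 in KO-NT 1 to 3. Txnip, an inhibitor of glucose uptake whose transcription follows glucose, measured 161, 146, 220 and 151 CPM in WT-NT and 117, 113, 96.5 and 5.53 CPM in KO-NT, KO-NT 4 being the last (log2 -0.61 without KO-NT 4, SE 0.157, edgeR adjusted p = 0.586). Starved wild-type libraries held 4.8, 1.57 and 4.46 CPM of Txnip. Of 26 p53 targets and cell cycle inhibitors, 22 were below 0 as labelled (median -0.14) and 20 without KO-NT 4 (median -0.38). The mean log2 CPM of that list was 6.14 in WT-NT 4, apart from 5.54 to 5.61 in WT-NT 1 to 3, and KO-NT 1 to 3 lay at 5.38 to 5.48. Leaving out WT-NT 4 from the 8 libraries gave a median of 0.02. Gadd45a, a growth arrest and DNA damage gene, measured 29.6, 44.2, 41 and 42.6 CPM and 25.4, 28.4, 23.3 and 109 CPM.

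Immediate early genes, which cells switch on fast after a stimulus, lay mostly above 0 in both fits: 6 of 22 reached an unadjusted p under 0.05 as labelled (median 0.41) and 7 without KO-NT 4 (median 0.52), all upward, where 1.76% and 3.13% of all genes did so upward. EdgeR called none of them. Averaged over the list, log2 CPM reached 4.71, 5.06, 5.07 and 3.96 across the wild-type libraries 1 to 4, against 5.22, 5.07, 5.37 and 4.93 across KO-NT 1 to 4. WT-NT 4 was the lowest library, the median without it was 0.18 as labelled, and KO-NT 2 and KO-NT 4 lay within the wild-type range. Klf2, a Krüppel-like transcription factor, measured 6.93, 11.6, 10.9 and 6.45 CPM in WT-NT and 17, 18.2, 20.7 and 16.3 CPM in KO-NT (log2 1.03, SE 0.218, edgeR adjusted p = 0.817). Fosl1, a subunit of AP-1, measured 5.67, 8.61, 8.05 and 3.63 CPM and 14, 11.2, 15.3 and 16.5 CPM (log2 1.16, SE 0.274, edgeR adjusted p = 1). Every knockout library lay above every wild-type library in both genes. Jun, another AP-1 subunit, measured 59.9, 80.3, 80.4 and 47.2 CPM and 105, 98.8, 129 and 79.7 CPM, with KO-NT 4 at the upper wild-type level. Fos and Egr1, the best known genes of this list, differed by -0.43 (SE 0.319) and -0.18 (SE 0.405). In the glucose-free libraries Klf2 and Fosl1 differed by -0.05 and -0.31 as labelled.

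In TGF-beta and BMP signalling, 4 of 25 genes reached an unadjusted p under 0.05 as labelled (median 0.20) and 6 without KO-NT 4 (median 0.14), all upward, where 1.76% and 3.13% of all genes did so upward. The mean log2 CPM of the list was 5.86 to 6.10 in WT-NT and 6.18 to 6.24 in KO-NT 1 to 3. KO-NT 4 lay within the wild-type range, at 5.89. Id1, a target gene of BMP signalling, measured 18.5, 37.4, 22.2 and 20.5 CPM in WT-NT and 50.9, 53.4, 55.6 and 24.8 CPM in KO-NT (log2 1.14 without KO-NT 4, SE 0.235, edgeR adjusted p = 0.449). Smad6, an inhibitor of the same pathway, measured 8.4, 13, 8.16 and 8.2 CPM and 18.7, 15.9, 16.7 and 11.7 CPM (log2 0.88 without KO-NT 4, SE 0.189, edgeR adjusted p = 0.475). Tgfb1, the ligand, differed by 0.50 without KO-NT 4 (SE 0.157). KO-NT 1 to 3 lay above all wild-type libraries in these 3 genes, and KO-NT 4 within the wild-type range. Log2 differences of collagen genes had both signs. Col5a3 measured 227, 306, 257 and 285 CPM in WT-NT and 405, 494, 527 and 270 CPM in KO-NT (log2 0.85 without KO-NT 4, SE 0.133, edgeR adjusted p = 0.199). Col3a1, a fibrillar collagen, measured 4106, 4838, 5259 and 7074 CPM and 3613, 4028, 3231 and 1787 CPM (log2 -0.72 as labelled, SE 0.273, and -0.53 without KO-NT 4, SE 0.186). Fmod, the collagen-binding proteoglycan fibromodulin, measured 76.7, 126, 54.8 and 81.9 CPM and 201, 191, 202 and 28.9 CPM (log2 1.25 without KO-NT 4, SE 0.243, edgeR adjusted p = 0.417). Mmp2, a gelatinase, measured 208, 202, 237 and 396 CPM and 156, 187, 157 and 130 CPM (log2 -0.70 as labelled, SE 0.226).

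**Figure D5:**
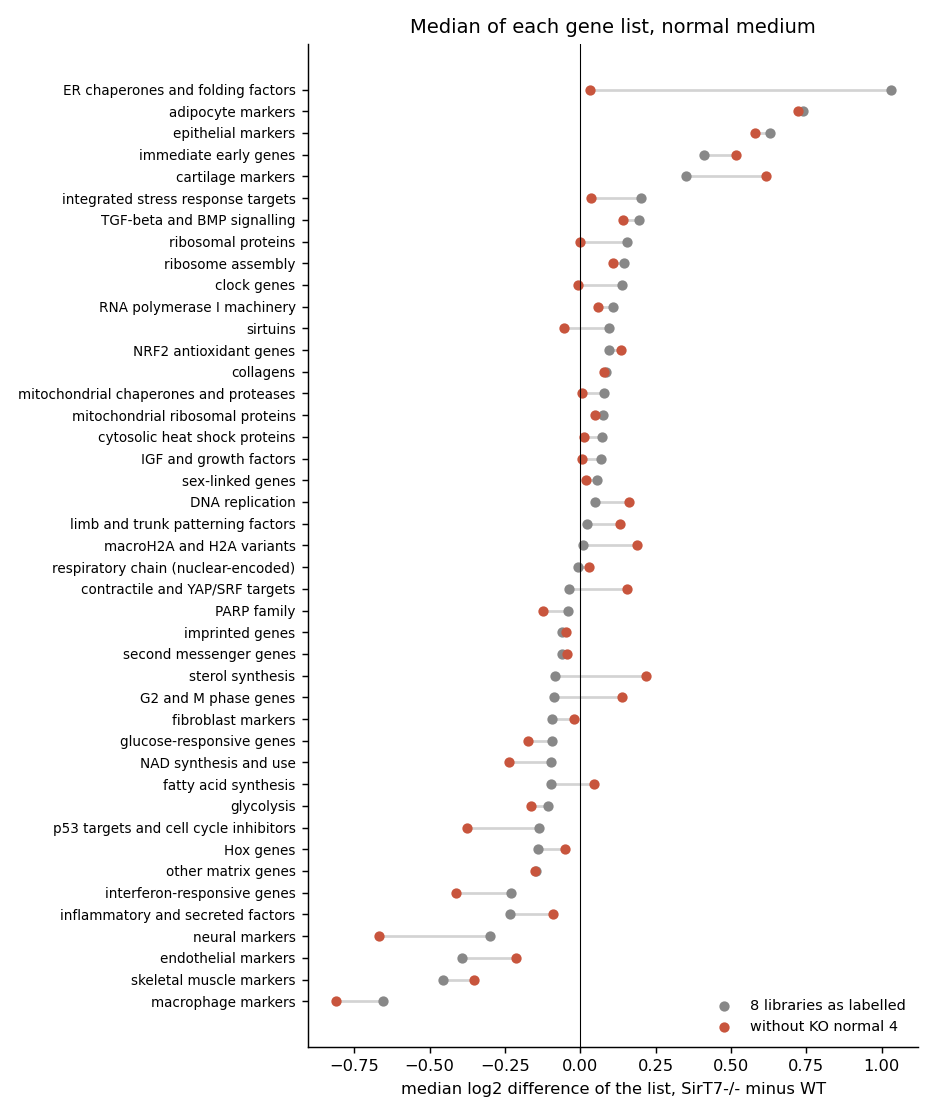
Median log2 difference between SirT7-/- and wild-type libraries in normal medium for each gene list, as labelled (grey points) and without KO-NT 4 (red points), ordered by the first. The ER chaperones move from 1.03 to 0.03, while the immediate early genes (0.41 and 0.52) and macrophage markers (-0.65 and -0.81) keep their side.

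Embryo cultures can hold other cells, and their markers were read in each library. Macrophage markers lay below 0 in all 14 tested genes in both fits (median -0.65 as labelled and -0.81 without KO-NT 4), with 1 and 2 of them at an unadjusted p under 0.05. Their summed level was 1146, 347, 2326 and 711 CPM in WT-NT 1 to 4 and 837, 505, 453 and 822 CPM in KO-NT 1 to 4, so the groups overlapped, and at most 1 of the 15 listed markers was at 0 in a library. Mrc1, the mannose receptor of macrophages, measured 45.7, 6.63, 123 and 31.4 CPM in WT-NT and 15, 9.86, 7.09 and 13.2 CPM in KO-NT (log2 -2.17, SE 0.723, edgeR adjusted p = 1). The 30 interferon-responsive genes lay below 0 in 22 cases as labelled (median -0.23) and in 30 without KO-NT 4 (median -0.41). In WT-NT 1 to 4 their mean log2 CPM was 3.57, 2.77, 4.02 and 3.74. KO-NT 1 to 4 lay at 3.78, 2.99, 2.43 and 3.57, so the groups overlapped. In glucose-free medium as labelled, all 29 tested genes of this list lay above 0 (median 0.64). So did all 14 tested macrophage markers there (median 1.44). The part of macrophage RNA in the values of Mmp12, Slc40a1, Cd38 and the interferon-responsive genes was not tested. In bulk RNA, fewer cells of a type and less RNA per cell cannot be told apart. Epithelial markers summed to 11.2 to 23 CPM, endothelial markers to 6.7 to 24.9 CPM, cartilage markers to 23.4 to 75.9 CPM, neural markers to 104 to 170 CPM, skeletal muscle markers to 84.8 to 144 CPM and adipocyte markers to 66.2 to 205 CPM over the 8 libraries, and none of these genes was called. Krt14, an epithelial keratin, measured 0, 0.404, 0 and 0.133 CPM in WT-NT and 2.34, 1.27, 0.519 and 1.8 CPM in KO-NT. Fabp4, a fatty acid binding protein of adipocytes, measured 4.84, 5.4, 4.05 and 3.87 CPM and 18.6, 6.8, 9.75 and 1.72 CPM (log2 1.39 without KO-NT 4, SE 0.323, edgeR adjusted p = 0.509).

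Positional identity genes were read because the cells come from whole embryos or parts of them that the labels do not name. Of 37 tested Hox genes, 4 reached an unadjusted p under 0.05 in each fit, all downward, with medians of -0.14 as labelled and -0.05 without KO-NT 4. Of all genes, 2.01% as labelled and 3.44% without KO-NT 4 did so downward. Values above 0 were held by 14 of the 37 as labelled and by 16 without KO-NT 4, the largest being 1.12 and 1.07. In glucose-free medium as labelled, 3 Hox genes reached an unadjusted p under 0.05 by edgeR, all upward, as did 335 of 14972 genes. Hoxa5 measured 6.56, 5.58, 6.01 and 5.04 CPM in WT-NT and 3.61, 3.54, 3.69 and 2.21 CPM in KO-NT (log2 -0.81, SE 0.214, edgeR adjusted p = 1). Hoxb7 measured 4.91, 5.18, 4.77 and 6.81 CPM and 3.44, 3.64, 3.19 and 3.51 CPM (log2 -0.63, SE 0.174, edgeR adjusted p = 1). In both genes all knockout libraries lay below all wild-type libraries.

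KO-NT 4 differed from KO-NT 1 to 3 by more than 10-fold in single genes. Derl3, a factor of ER-associated degradation, measured 145 CPM in KO-NT 4, where KO-NT 1 to 3 had a mean of 0.307 CPM, and Txnip 5.53 against 109 CPM. Car6, Prr32 and Nrip2 were also far higher in KO-NT 4 (48.5 against 1.13, 20.7 against 0.397 and 24.3 against 1.09 CPM), and Lrrc17 and Cxcl5 far lower (11 against 237 and 0.873 against 44.1 CPM). Eif3j1 and Eif3j2 went in opposite directions, at 68.2 against 0.199 and 0 against 61.4 CPM, and as near-identical copies they are uncertain.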

How the data were processed

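RNA was measured in 14 libraries, 8 of them used in the main comparison. The submitters' processing notes name HISAT2 2.1.0 and StringTie 1.3.3 with build mm9, besides Trimmomatic 0.36, FastQC 0.11.3, SAMtools and DESeq2 1.18.1, and the annotation and strand setting are not given in the sources used here. The deposited table holds the authors' estimated counts per gene symbol as whole numbers, for 24015 symbols, of which 27 are dates in place of a symbol and 4225 are 0 throughout. Total counts were 73128997 to 91607861 in the 8 libraries. CPM is the count scaled to the total of its library.

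SirT7-/- was tested against wild type with edgeR 4.0.16 in R 4.3.3 (robust quasi-likelihood F-test, TMM normalization, filterByExpr with a minimum count of 10 and total of 15, group as the only term). P-values were adjusted over all genes tested by the Benjamini-Hochberg method, and genes were called at an adjusted p under 0.05. The standard error (SE) of a log2 difference was worked back from the F-test. The filter left 14971 genes as labelled and 15107 without KO-NT 4. The analysis was also run on simulated counts, with the same dispersion for all genes and no library that stood apart. That run does not show how the test behaves on libraries such as these.

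The members, the 43 gene lists and the decision to show values without KO-NT 4 were chosen with earlier results of these data known. Of 1023 list entries 1022 matched a symbol of the table. Named genes are Sirt7, called genes, and, where fewer than 5 were called in a direction, the 12 with the smallest p among genes with no overlap and a mean of at least 5 CPM in the higher group; clone symbols were left out. From each list up to 4 members with the smallest p may be named, and members of the families of the series' subject, markers, sex-linked genes and Sirt7's neighbours throughout. Fos and Egr1 were named after their values were seen. Gene order and promoters came from RefSeq on GRCm38.p6, which the counts do not use, and 1 neighbour is not reported here. Alternatives were RLE or library-size scaling, no and stricter filters (1 CPM in a group, mean count 50), no robust moderation, limma 3.58.1 voom with and without library weights, DESeq2 1.42.0, a fit on all groups, a replicate block, and leaving out each library.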

Additional observations from a re-analysis of the deposited data

Results flagged for a closer look

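Within each group of 4 libraries, a library was singled out where its gap to the nearest other library exceeded Dixon's 95% critical share of the group's range. Chance does so in about 1 in 20 groups. Of 248 groups tested, counting both genotypes, KO-NT 4 was singled out in 34, WT-NT 4 in 4, WT-NT 2 in 2 and KO-NT 1 in 1. Some of the genes were named in the fit that left KO-NT 4 out, so the chance rate does not hold for that library.

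KO-NT 4 stood apart in its total count (91607861), its position between fed and starved wild type (0.85) and these genes. It was high against its group for Htra1 (201 CPM), Bnip3 (80.5 CPM), Pdk1 (42.4 CPM), P4ha1 (487 CPM), Hspa5 (6333 CPM), Gadd45a (109 CPM), Mdm2 (283 CPM), Klf4 (278 CPM) and Slc7a1 (365 CPM). It was low for P4hb (2592 CPM), Arhgdia (644 CPM), Trib2 (9.55 CPM), Sp7 (1.08 CPM), Fbxo32 (60.7 CPM), H2afy2 (16.6 CPM), Arrdc4 (3.61 CPM), Fmod (28.9 CPM), Id1 (24.8 CPM) and Hoxa5 (2.21 CPM). In the mean log2 CPM of lists it stood apart for ribosomal proteins (9.20), mitochondrial chaperones and proteases (6.73), ER chaperones (9.67), sex-linked genes (6.97) and glycolysis (7.11), and also for macroH2A and H2A variants (4.64), glucose-responsive genes (4.09), sterol synthesis (4.96), fatty acid synthesis (6.20), G2 and M phase genes (4.68), collagens (7.55), other matrix genes (7.71) and TGF-beta and BMP signalling (5.89).

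WT-NT 4 stood apart in Cspg4 (226 CPM) and Hspa5 (1065 CPM), both the lowest of the wild type, and in the mean log2 CPM of DNA replication (4.89) and of p53 targets (6.14). WT-NT 2 was the highest wild-type library in Pcyt2 (90.6 CPM) and Smad6 (13 CPM). KO-NT 1 stood apart in the mean log2 CPM of epithelial markers (2.03).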

How the results depend on the processing

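The number of genes called as labelled (1) was 50 with DESeq2, 75 with limma-voom and library weights, 0 with the replicate block, and 0 to 5 when 1 library was left out. Without KO-NT 4 the number (5) was 137 with DESeq2, 107 with library weights, 9 with the stricter filter, 1 with the replicate block, and 1 to 14 when another library was left out. In glucose-free medium the number (1) was 0 to 4 when 1 library was left out. The other settings stayed within 1.5 times. Same-numbered libraries of the 2 genotypes correlated in their deviations at 0.154, 0.213, -0.131 and 0.305. Not every library correlated best with its own number. With 4 libraries a group this check cannot settle whether the numbers pair the libraries, and the labels do not say. Under the block Sirt7 had an edgeR adjusted p of 0.0593 as labelled, and without KO-NT 4 only Sirt7 was called. Among named genes, H2afy2 changed sign: as labelled to 0.16 with library weights, with -0.24 to 0.13 when 1 library was left out (0.12 without WT-NT 2, 0.13 without KO-NT 4), and without KO-NT 4 with -0.0062 (without WT-NT 4) to 0.35 when another was left out. Sirt7, Pcyt2, P4hb, Arhgdia and Htra1 kept their direction in all 17 settings run without KO-NT 4 and were called in 17, 12, 11, 10 and 10 of them. With 3 or 4 libraries a group, a p that misses the threshold does not show that a gene did not differ. Counts of any 2 libraries of a group differed over genes by a chi-square of at least 34.0 per degree of freedom, more than counting error alone gives.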

Other observations

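Slc13a5, a citrate transporter, fell outside the naming rule because its mean is under 5 CPM, and it was chosen after its values were seen. It measured 0.766, 0.797, 0.675 and 1.52 CPM in WT-NT 1 to 4 and 4.82, 4.12, 4.98 and 4.01 CPM in KO-NT 1 to 4, so that all knockout libraries, KO-NT 4 included, lay above all wild-type libraries (log2 2.28, SE 0.296, edgeR adjusted p = 0.174 as labelled). In glucose-free medium it measured 2.64, 2.86 and 3.18 CPM in wild-type and 4.7, 1.91 and 4.12 CPM in SirT7-/- libraries, which overlap.

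A pair of genes of glutathione synthesis, chosen after their values were seen as members of the list of NRF2 antioxidant genes, did not overlap in either fit. Gclc, the catalytic subunit of glutamate-cysteine ligase, measured 52.1, 48, 46.3 and 39.7 CPM in WT-NT and 60.1, 57.5, 58.2 and 65.8 CPM in KO-NT (log2 0.40, SE 0.104, edgeR adjusted p = 1). Gclm, its modifier subunit, measured 28.3, 28.4, 24.5 and 28.2 CPM and 35.1, 31.3, 31 and 31.8 CPM (log2 0.26, SE 0.0924, edgeR adjusted p = 1). Of 21 tested genes of that list, 3 reached an unadjusted p under 0.05 as labelled, with Gpx3 downward.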
